A study of Mus musculus with 72 samples.

Results

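Connexins are the proteins of gap junctions, the channels that join the cytoplasm of neighbouring cells. Transcripts of 9 connexin genes (Gja1, Gja4, Gja5, Gjb1, Gjb2, Gjb6, Gjc1, Gjc3 and Gjd2) were followed through the hearts and brains of Gnb5 mutant mice. They form a list given by name and make up 9 of the 53715 genes in the deposited count tables. Each was found by its symbol in the GENCODE M21 annotation of GRCm38, and all 9 were present.

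The libraries came from 18 male mice, 18 weeks old and on a C57BL/6J background, in which the mutant Gnb5 allele lacks exon 3 in the germline, so that every cell type carried it. Hearts were divided into atria and ventricles and came from Gnb5+/+, Gnb5+/- and Gnb5-/- mice. Brains came from Gnb5+/+ and Gnb5-/- mice alone and were divided into cerebral cortex, cerebellum and hippocampus. Each of the 12 groups held 6 mice and 6 libraries, 72 in all. Gnb5 encodes a G protein beta subunit that works with the R7 group of RGS proteins to end signalling through heterotrimeric G proteins. The tissues of 1 mouse share its number in the labels. Atria and ventricles were taken whole, left with right, and so held nodal as well as working muscle. Cerebellum and cortex were also taken whole, and the hippocampi of both hemispheres were used.

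In a gap junction, connexin subunits assemble into a hemichannel in each cell, and hemichannels of adjacent cells dock through their extracellular loops. In heart muscle the junctions sit mainly at the intercalated disc and carry the action potential from cell to cell: Cx43 (Gja1) is the connexin of working muscle, Cx40 (Gja5) of atrial muscle, the ventricular conduction system and arterial endothelium, and Cx45 (Gjc1) of the nodes and the developing heart. In the brain, astrocytes are coupled by Cx43 and Cx30 (Gjb6), with Cx26 (Gjb2) also found in the meninges. Oligodendrocytes carry Cx32 (Gjb1) and Cx29 (Gjc3), and electrical synapses between neurons use Cx36 (Gjd2). Cx37 (Gja4) is a connexin of endothelium.

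The family is recognised by its extracellular loops, and the stretch of the first loop that holds its 3 cysteines is shown for all 9 genes, since it is a stretch they have in common while their levels differed widely. Each stretch is 36 bases of coding sequence, inside a single exon, read from the GENCODE M21 transcripts in the gene's own direction with GRCm38 positions, and the cysteine codons are in capitals.
Gja1, chr10:56387706-56387741, plus strand: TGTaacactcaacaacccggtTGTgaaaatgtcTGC
Gja4, chr4:127312774-127312809, minus strand: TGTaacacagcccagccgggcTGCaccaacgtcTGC
Gja5, chr3:97050788-97050823, plus strand: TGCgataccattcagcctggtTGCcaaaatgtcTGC
Gjb1, chrX:101384324-101384359, plus strand: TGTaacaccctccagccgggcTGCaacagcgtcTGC
Gjb2, chr14:57100558-57100593, minus strand: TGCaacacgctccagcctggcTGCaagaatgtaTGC
Gjb6, chr14:57124611-57124646, minus strand: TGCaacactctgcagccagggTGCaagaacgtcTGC
Gjc1, chr11:102800984-102801019, minus strand: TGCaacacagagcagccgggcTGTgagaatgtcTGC
Gjc3, chr5:137957797-137957832, minus strand: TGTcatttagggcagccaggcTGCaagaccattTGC
Gjd2, chr2:114011797-114011832, minus strand: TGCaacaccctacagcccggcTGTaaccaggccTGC

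Of the 36 bases, 14 were the same in all 9 genes. Over the 36 pairs of genes, between 18 and 31 bases matched, with a median of 26. The spacing of the cysteine codons was the same throughout. Over the whole coding sequence, the longest run that any pair shared exactly was 26 bases, between Gja1 and Gja4, which is shorter than the sequenced reads. Gjb2 and Gjb6 lie on chromosome 14 with 18600 bases between them, and matched at 30 of the 36 bases.

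Promoters are shown for Gja5, whose highest and lowest tissues differed by the largest ratio that could be computed, and for the neighbours Gjb2 and Gjb6, which were both brain genes in these data but varied differently between libraries. The 250 bases before the annotated start are from the RefSeq table of GRCm38.p6, which held promoters of 8 of the 9 genes. GC boxes (GGGCGG, either strand) are in capitals.
Gja5, chr3:97032152-97032401, plus strand: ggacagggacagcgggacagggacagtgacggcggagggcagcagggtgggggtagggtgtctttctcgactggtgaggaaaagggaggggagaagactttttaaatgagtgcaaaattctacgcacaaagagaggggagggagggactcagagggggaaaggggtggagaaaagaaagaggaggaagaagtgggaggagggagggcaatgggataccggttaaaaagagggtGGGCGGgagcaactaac
Gjb2, chr14:57104703-57104952, minus strand: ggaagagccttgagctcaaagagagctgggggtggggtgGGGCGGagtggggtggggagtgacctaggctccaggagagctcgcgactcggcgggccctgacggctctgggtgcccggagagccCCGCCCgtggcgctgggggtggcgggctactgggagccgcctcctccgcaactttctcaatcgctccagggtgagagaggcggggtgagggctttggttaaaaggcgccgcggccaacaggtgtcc
Gjb6, chr14:57133612-57133861, minus strand: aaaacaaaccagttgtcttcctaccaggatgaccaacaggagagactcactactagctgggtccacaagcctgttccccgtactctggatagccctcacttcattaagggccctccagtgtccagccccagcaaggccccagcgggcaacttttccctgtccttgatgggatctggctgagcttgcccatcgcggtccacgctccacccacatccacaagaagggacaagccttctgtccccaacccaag

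The annotated span of Gja5 is chr3:96904693-97077416 in GENCODE M21, so the RefSeq start of its window lies inside that span. The Gja5 window held 1 GC box, the Gjb2 window 2 and the Gjb6 window none, where 32.7% of the 32851 promoters of this length held at least 1. Their GC contents were 56.4%, 69.2% and 56.8%, beside a median of 52.4% over all promoters. These 3 windows held no match to a T-box half-site (GGTGTGA), an AP-1 site (TGANTCA) or a TATA box (TATAAA), which were found on either strand in 3.33%, 6.75% and 12.4% of all promoters. Such matches describe the letters of the windows only.

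Between 29204390 and 48807435 reads per library were counted on genes, with a median of 38864900, and the 9 connexins together took 0.0303% to 0.0812% of them. Levels are given in TMM CPM, read counts brought to a common library size with edgeR's TMM factors over all 72 libraries, as mean ± SD of 6 mice with the lowest, the median and the highest library. Gnb5 itself followed the labels: it lay between 93.8 and 162 CPM in Gnb5+/+ and between 11.3 and 22.6 CPM in Gnb5-/- brain libraries, and between 15.9 and 31.7, 7.89 and 20.8, and 0.512 and 2.93 CPM in Gnb5+/+, Gnb5+/- and Gnb5-/- heart libraries, all without TMM scaling. Wild-type tissues carried their markers. The summed level of 4 atrial muscle genes was 21734 to 29858 CPM in atria and 130 to 327 CPM in ventricles, that of 4 ventricular muscle genes was 78.5 to 1346 CPM in atria and 14146 to 15130 CPM in ventricles, and that of 3 neuron genes was 2147 CPM or more in brain and 4.85 CPM or less in heart. In brain, the ventricular muscle genes reached 54.8 CPM in the wild-type hippocampus of mouse 8, where the next library had 4.38 CPM. In the wild-type cerebellum of mouse 8 they reached 13.5 CPM, where the next had 0.230 CPM. The part of heart RNA in the brain levels of these libraries was not tested. A pair of Gnb5-/- libraries stood apart from their groups. The cortex of mouse 14 had 2658 CPM over 8 astrocyte markers where the other 5 had 3351 to 5252, and the cerebellum of mouse 12 had 1918 CPM over 3 GABAergic neuron markers where the other 5 had 891 to 986. The value of 3351 CPM was that of the Gnb5-/- cortex of mouse 3, with 4474 CPM in the next, and this library was not set apart. Reads that the counting assigned to no gene feature were 6.86% and 8.32% in the cortices of mice 14 and 3 and 8.02% in the cerebellum of mouse 12. The other brain libraries had 11.7% or more.

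**Figure D1:**
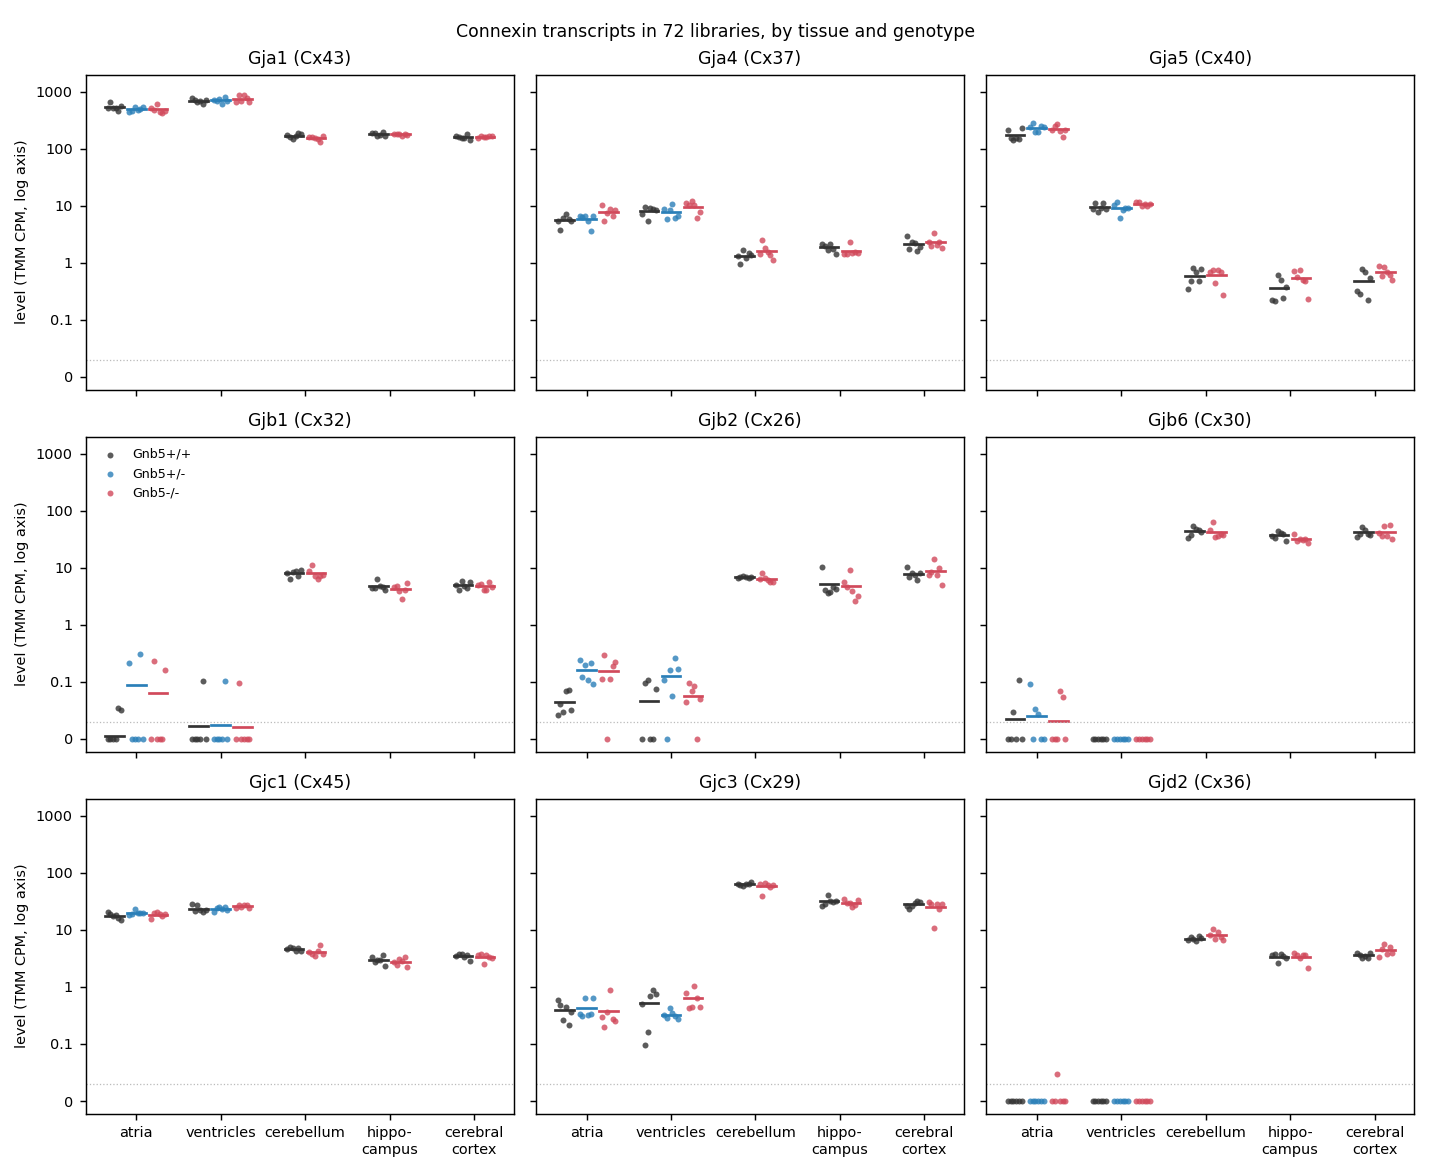
Level of each connexin in every library, in TMM CPM on a logarithmic axis. Libraries without a read are drawn below the dotted line, at the mark labelled 0. Each library is 1 point, with a bar at the group mean, tissues along the horizontal axis and colours for the genotypes. Gja1, Gja4, Gja5 and Gjc1 were higher in both heart tissues than in the 3 brain regions, and the other 5 genes were lower in both heart tissues, with Gjb6 at 0 in all 18 ventricular libraries.

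In wild-type mice the connexins fell into a heart group of 4 genes and a brain group of 5. Gja1, Gja4, Gja5 and Gjc1 were higher in heart, and Gjb1, Gjb2, Gjb6, Gjc3 and Gjd2 were higher in brain. All 9 differed between heart and brain (edgeR's quasi-likelihood test with Benjamini-Hochberg adjustment), but so did 90.9% of the 19477 genes tested in wild-type mice, and each pair of a heart and a brain tissue also separated all 9. Beside them, atria differed from cerebellum, hippocampus and cortex at 86.3%, 86.4% and 87% of all genes, and ventricles at 86.6%, 86.9% and 87.4%. The size of the difference, rather than its presence, set the connexins apart from each other. In these bulk tissues, fewer cells of a type and less RNA per cell cannot be told apart.

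Gja1 encodes Cx43, the main ventricular connexin and an astrocyte connexin. It lay at 540.3 ± 70.4 CPM in wild-type atria (lowest 452, median 523, highest 663) and 693 ± 62.7 CPM in ventricles (602, 697, 783). In the brain it lay at 169.7 ± 13.6 CPM in cerebellum (148, 171, 185), 182 ± 13.04 CPM in hippocampus (168, 183, 198) and 161 ± 13.2 CPM in cortex (143, 159, 182). The 12 wild-type heart libraries all lay above the 18 wild-type brain libraries, while the 3 brain regions overlapped. Heart exceeded brain by 1.7996 on the log2 scale (SE 0.05), and by 0.95 when libraries were scaled by their size alone. No pair of brain regions passed the test (adjusted p = 0.0606 for hippocampus against cortex, 0.0968 for cerebellum against cortex and 0.638 for cerebellum against hippocampus), and the ratio of 4.29 between the highest and lowest tissue was the smallest computed for the 9 genes.

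Gja5, encoding Cx40, was the chamber gene of the family. It reached 174 ± 38.8 CPM in wild-type atria (lowest 142, median 153, highest 229) against 9.48 ± 1.47 CPM in ventricles (7.63, 9.05, 11.4), and no library of either chamber reached the other. The difference was 4.24 on the log2 scale (SE 0.19, adjusted p = 2.49e-18). In brain it was near the bottom of its range, with 0.599 ± 0.188 CPM in cerebellum, 0.363 ± 0.170 CPM in hippocampus and 0.474 ± 0.232 CPM in cortex, and the mean atrial level was 478 times the hippocampal mean. Neither hippocampus against cortex (adjusted p = 0.360) nor cerebellum against cortex (adjusted p = 0.208) passed the test for Gja5. An exon of Gja5 overlaps Gpr89 on the opposite strand, which had a median count of 1153.5 per library. The strand setting of the counting is not given in the sources used here, and the part of this overlap in the low brain values of Gja5 was not tested.

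Gjc1, encoding Cx45 of nodal tissue, was highest in ventricles. Its wild-type levels were 17.8 ± 2.19 CPM in atria, 23.6 ± 3.13 CPM in ventricles, 4.63 ± 0.312 CPM in cerebellum, 3.02 ± 0.478 CPM in hippocampus and 3.49 ± 0.357 CPM in cortex. Heart exceeded brain by 2.44 on the log2 scale (SE 0.06). Within the brain Gjc1 was highest in cerebellum, by 0.67 over hippocampus (SE 0.10, adjusted p = 1.05e-06) and by 0.48 over cortex (SE 0.10, adjusted p = 1.29e-04), whereas hippocampus against cortex did not pass (adjusted p = 0.161).

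Gja4, the endothelial connexin Cx37, lay at 5.59 ± 1.16 CPM in wild-type atria and 8.02 ± 1.57 CPM in ventricles. Its brain levels were 1.33 ± 0.230 CPM in cerebellum, 1.86 ± 0.299 CPM in hippocampus and 2.14 ± 0.505 CPM in cortex. Cerebellum, the highest brain region for Gjc1, was the lowest for Gja4, below hippocampus by 0.42 (SE 0.17, adjusted p = 0.0301) and below cortex by 0.61 (SE 0.17, adjusted p = 0.00209). With library size alone the Gja4 difference from hippocampus was -0.36 and did not pass (adjusted p = 0.0808). Heart exceeded brain by 1.90 (SE 0.11). The summed level of 8 endothelial markers was 1173 to 1612 CPM in the wild-type heart libraries and 94.4 to 161 CPM in the brain libraries, and the part of the endothelium in the Gja4 difference was not tested.

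Between the wild-type chambers, 4 of the 9 connexins differed, beside 51.6% of all genes. Gja5 was higher in atria, and Gja1, Gja4 and Gjc1 were lower in atria by 0.31 (SE 0.08, adjusted p = 0.00118), 0.47 (SE 0.16, adjusted p = 0.0159) and 0.36 (SE 0.10, adjusted p = 0.00294) on the log2 scale. The 3 smaller differences depended on the scaling. With library size alone the median difference of all genes between atria and ventricles moved from 0.07 to 0.45, the differences of Gja1 and Gjc1 turned to 0.07 (adjusted p = 0.503) and 0.03 (adjusted p = 0.849), and that of Gja4 shrank to -0.08 (adjusted p = 0.703). Gja5 was higher in atria under both scalings.

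Gjb6, encoding the astrocyte connexin Cx30, had similar levels in the 3 brain regions. It lay at 44.0 ± 7.69 CPM in wild-type cerebellum (lowest 33.4, median 44.5, highest 55.0), 37.1 ± 4.91 CPM in hippocampus (29.9, 37.4, 43.5) and 41.7 ± 6.56 CPM in cortex (35.1, 39.4, 52.3). No read was counted on it in any of the 18 ventricular libraries, and at most 3 reads in an atrial library. The wild-type cerebellum was therefore at least 297-fold higher than the ventricles, where the floor was taken as 3 counts per library. Of the pairs of brain regions, cerebellum was above hippocampus by 0.31 (SE 0.13, adjusted p = 0.0378), and that call was lost under 4 of the alternatives tried.

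Gjb2, Cx26 of astrocytes and meninges, had 6.81 ± 0.170 CPM in wild-type cerebellum (lowest 6.62, median 6.81, highest 7.10), 5.11 ± 2.56 CPM in hippocampus (3.56, 4.23, 10.3) and 7.87 ± 1.47 CPM in cortex (6.14, 7.76, 10.4). The cerebellar libraries lay close together, and in hippocampus the library of mouse 15 was far above the other 5, which reached 4.67 CPM. That library also had the highest sums in wild-type hippocampus of 4 smooth muscle markers, at 58.1 CPM, and of 6 fibroblast and meninges markers, at 117 CPM, and the part of these cells in its Gjb2 level was not tested. Hippocampus was below cerebellum by 0.47 (SE 0.19, adjusted p = 0.0305) and below cortex by 0.60 (SE 0.19, adjusted p = 0.0140). The Gjb2 difference from cerebellum did not pass with RLE factors (0.41, adjusted p = 0.0554) or with DESeq2 (0.42, adjusted p = 0.0783). Without the library of mouse 15, a choice made after the values were seen, these Gjb2 differences were 0.79 (adjusted p = 1.47e-05) and 0.93 (adjusted p = 5.59e-06). In the heart Gjb2 was at the limit of counting, with 1 or 2 reads in wild-type atrial libraries, 3 to 8 in Gnb5+/- and 0 to 9 in Gnb5-/- atria, and 0 to 5 in ventricles. The Gnb5+/- atrial libraries thus all lay above the wild-type ones, in a gene that the filter on low counts left untested there. Without that filter the edgeR test of this Gjb2 difference gave an adjusted p of 0.686. The share of all genes that separated in this way is not given here.

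Gjc3, encoding Cx29 of myelinating cells, was highest in cerebellum. Its levels were 63.2 ± 4.08 CPM in wild-type cerebellum (lowest 57.7, median 62.9, highest 70.3), 31.9 ± 5.14 CPM in hippocampus (26.7, 31.4, 41.3) and 28.2 ± 3.14 CPM in cortex (23.7, 28.3, 32.01). No cerebellar library overlapped those of the other regions. Cerebellum exceeded hippocampus by 1.04 (SE 0.13, adjusted p = 3.79e-08) and cortex by 1.24 (SE 0.13, adjusted p = 1.33e-09), while hippocampus against cortex did not pass (adjusted p = 0.282). Unlike the other 4 genes of the brain group it was counted in every heart library, at 0.393 ± 0.142 CPM in wild-type atria and 0.513 ± 0.322 CPM in ventricles. The sum of 4 Schwann cell markers was 8.76 to 15.8 CPM in these heart libraries, and the part of such cells in the heart reads of Gjc3 was not tested.

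Gjb1, the oligodendrocyte connexin Cx32, was also highest in cerebellum. It had 7.997 ± 1.05 CPM in wild-type cerebellum, 4.80 ± 0.761 CPM in hippocampus and 4.97 ± 0.676 CPM in cortex. Cerebellum exceeded hippocampus by 0.79 (SE 0.15, adjusted p = 2.92e-05) and cortex by 0.76 (SE 0.15, adjusted p = 4.84e-05). No more than 2 reads were counted on Gjb1 in a wild-type heart library, and no more than 10 in a Gnb5+/- or Gnb5-/- one.

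Gjd2, which encodes Cx36 of neuronal electrical synapses, was a brain gene throughout, with 1 read counted in the 36 heart libraries together. Its wild-type levels were 7.06 ± 0.486 CPM in cerebellum (lowest 6.45, median 7.08, highest 7.76), 3.41 ± 0.457 CPM in hippocampus and 3.59 ± 0.351 CPM in cortex. Cerebellum was above hippocampus by 1.11 (SE 0.11, adjusted p = 9.65e-09) and above cortex by 1.05 (SE 0.11, adjusted p = 2.11e-08), and at least 71.0-fold above atria against the floor of 3 counts. Gjd2 overlaps an opposite-strand transcript, A530058N18Rik, with 2 entries in the annotation whose median counts were 2.5 and 12 per library.

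In the brain as a whole, 8 of the 9 connexins differed between wild-type cerebellum and hippocampus (68.3% of all genes), 5 between cerebellum and cortex (69.1%), and 1, Gjb2, between hippocampus and cortex (33.5%). Where the cerebellum differed from hippocampus, it was the higher for all but Gja4. The low-count Gja5 was among the 8, with a difference of 0.81 (SE 0.30, adjusted p = 0.0190). Without the hippocampal library of mouse 15 the 8 became 5, as Gja4 (-0.37, adjusted p = 0.0688), Gja5 (0.69, adjusted p = 0.0530) and Gjb6 (0.29, adjusted p = 0.0662) fell short of the threshold.

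The 9 genes differ in length, so their levels were compared with each other per kb of exon, as shares of their sum in each library. Over the union of exons, wild-type atria had 58.7 ± 4.85% Gja1 and 33.4 ± 4.93% Gja5, with 3.98% Gjc1 and 3.77% Gja4. Ventricles had 85.6 ± 1.22% Gja1, 6.07% Gja4, 6.00% Gjc1 and 2.11% Gja5. The heart was thus carried by Gja1 in both chambers, shared with Gja5 in the atria.

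Brain tissue divided the sum more evenly. In cerebellum Gja1 had 27.9 ± 2.47%, Gjb6 27.7 ± 3.95% and Gjc3 24.5 ± 1.74%, and Gja1 ranked first in 4 of 6 mice and Gjb6 in 2. Hippocampus had 38.0 ± 3.04% Gja1, 29.5 ± 2.37% Gjb6 and 15.6 ± 2.32% Gjc3. Cortex had 33.3 ± 2.91% Gja1, 32.9 ± 3.68% Gjb6 and 13.7 ± 1.55% Gjc3. The order of Gja1 and Gjb6 depended on the length used, because the union of Gja1 exons is 10257 bases and its longest transcript 3889. With the longest transcript Gja1 took 46.9% in cerebellum, 58.0% in hippocampus and 52.9% in cortex, ranking first in all 6 mice of each region, and the shares of Gjb6 were 22.5%, 21.7% and 25.2%.

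**Figure D2:**
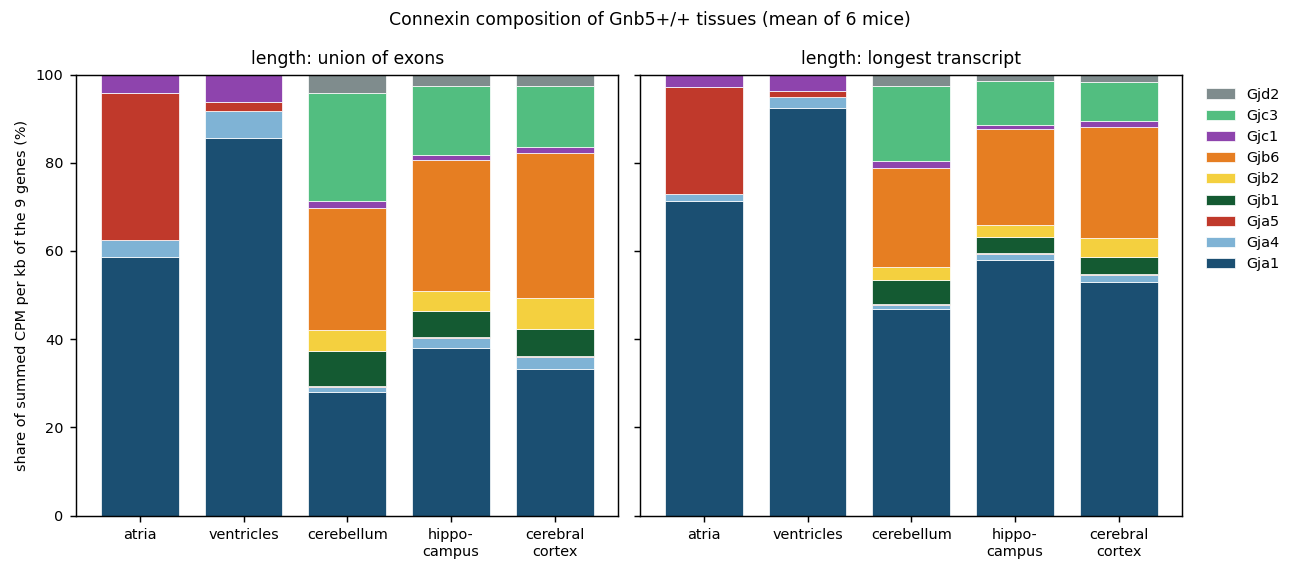
Share of each connexin in the summed CPM per kb of the 9 genes, in percent, as the mean of 6 wild-type mice for each tissue, with the union of exons as gene length on the left and the longest transcript on the right. Gja1 fills 85.6% of the ventricular bar on the left and 92.5% on the right, Gja5 is visible mainly in atria, and Gjb6 and Gjc3 appear only in the brain bars.

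The question of the study's genotype comparisons is what loss of Gnb5 does to the transcriptome. For the connexins, 57 tests in 9 comparisons were possible: 5 genes in each heart comparison (Gja1, Gja4, Gja5, Gjc1 and Gjc3) and all 9 in each brain comparison. None of the 57 passed the threshold in edgeR or in DESeq2. The share of all genes that passed in edgeR was small too, at 0.253% in atria, 0.188% in ventricles, 0.0817% in cerebellum, 0.165% in hippocampus and 0.0557% in cortex for Gnb5-/- against Gnb5+/+, at 0.0124% in atria and 0.0202% in ventricles for Gnb5+/- against Gnb5+/+, and at 0.0494% and 0.0874% for Gnb5-/- against Gnb5+/-. Of the 57, 7 had an unadjusted p below 0.05, and the smallest adjusted p was 0.392. Between 4.78% and 8.79% of all genes had such an unadjusted p in a comparison.

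Gja5 in atria lay higher in both mutant groups, without passing the adjustment. Against 174 ± 38.8 CPM in Gnb5+/+, it had 234 ± 33.2 CPM in Gnb5+/- (lowest 195, median 239, highest 282) and 219 ± 39.2 CPM in Gnb5-/- (163, 211, 275). The 3 groups overlapped, although 6 of 6 Gnb5+/- and 5 of 6 Gnb5-/- libraries were above the wild-type mean. The differences were 0.43 for Gnb5+/- (SE 0.14, adjusted p = 0.610, exact permutation p = 0.0260) and 0.34 for Gnb5-/- (SE 0.14, adjusted p = 0.493, exact permutation p = 0.0779). They share the wild-type libraries. Marker sums also differed in mean between these groups, with overlap. The 6 pacemaker and conduction markers summed to 76.2 ± 21.9 CPM in Gnb5+/+, 121 ± 21.3 CPM in Gnb5+/- and 106 ± 39.6 CPM in Gnb5-/- atria. The 4 ventricular muscle markers summed to 552 ± 513, 228 ± 237 and 246 ± 122 CPM. Their part in the Gja5 levels was not tested. In ventricles Gja5 had 9.14 ± 1.85 CPM in Gnb5+/- and 10.8 ± 0.679 CPM in Gnb5-/-.

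Among the atrial groups, the mean share of Gja5 in the 9 genes was lowest in the wild type. Per kb of the union of exons, Gja5 made up 33.4 ± 4.93% of the 9 genes in Gnb5+/+ atria (27.2% to 39.4%), 42.3 ± 4.58% in Gnb5+/- (36.2% to 48.5%) and 40.3 ± 2.72% in Gnb5-/- atria (36.7% to 44.5%). The share of Gja1 was 58.7 ± 4.85%, 49.7 ± 4.12% and 50.5 ± 2.11%. The ranges of Gja5 overlapped between all 3 genotypes, and in 1 Gnb5+/- library Gja5 ranked above Gja1. With the longest transcript as length, Gja5 made up 24.2% in Gnb5+/+ and 30.4% in Gnb5-/- atria. The difference between the shares was not tested apart from the levels.

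Gja4 in atria had 5.59 ± 1.16 CPM in Gnb5+/+, 5.88 ± 1.18 CPM in Gnb5+/- and 7.85 ± 1.78 CPM in Gnb5-/- mice (lowest 5.39, median 7.89, highest 10.4). The difference of Gnb5-/- was 0.49 from Gnb5+/+ (SE 0.17, adjusted p = 0.392, and p = 0.0260 by exact permutation) and 0.42 from Gnb5+/- (adjusted p = 0.979), and each time 5 of 6 Gnb5-/- libraries lay above the mean of the other group. This was the smallest adjusted p of the 57. The sum of 5 arterial endothelial markers was 75.6 to 103 CPM in Gnb5+/+ and 107 to 115 CPM in Gnb5-/- atria, and that of 8 endothelial markers 1173 to 1612 and 1398 to 1634 CPM. The part of arterial cells in the Gja4 levels was not tested.

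Gja1 and Gjc1, the connexins of working and nodal muscle, passed in no heart comparison. Gja1 had 489.5 ± 43.9 CPM in Gnb5+/- and 488.6 ± 65.8 CPM in Gnb5-/- atria, and 705 ± 63.1 and 757 ± 103 CPM in ventricles. The 95% interval of its Gnb5-/- difference from wild type was -0.34 to 0.05 in atria and -0.08 to 0.32 in ventricles. For Gjc1 the intervals were -0.12 to 0.25 and -0.06 to 0.32.

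Among the 57 tests, Gjc3 in ventricles was the only case in which a pair of genotypes did not overlap. Its counts were low, between 5 and 8 reads in Gnb5+/- and between 9 and 24 reads in Gnb5-/- libraries, or 0.328 ± 0.0541 and 0.632 ± 0.242 CPM, with 0.513 ± 0.322 CPM in Gnb5+/+. Gnb5-/- exceeded Gnb5+/- by 0.93 (SE 0.40, adjusted p = 0.512). The exact permutation p was 0.00216, the smallest that 6 mice against 6 allow. The range of the wild-type libraries overlapped both. Of all genes tested between Gnb5-/- and Gnb5+/- ventricles, 8.79% had an unadjusted p below 0.05 in edgeR. The share of all genes whose libraries did not overlap there is not given here.

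In the brain, Gjb6 in hippocampus and Gjd2 in cortex were the 2 results with an unadjusted p below 0.05. Gjb6 had 31.8 ± 4.00 CPM in Gnb5-/- against 37.1 ± 4.91 CPM in Gnb5+/+ hippocampus, a difference of -0.22 (SE 0.09, adjusted p = 0.612, and p = 0.0671 by exact permutation), and 5 of 6 Gnb5-/- libraries lay below the wild-type mean. Gjd2 had 4.39 ± 0.826 CPM in Gnb5-/- against 3.59 ± 0.351 CPM in Gnb5+/+ cortex, a difference of 0.32 (SE 0.15, adjusted p = 0.474, exact permutation p = 0.0563). Without the cortex of mouse 14 the Gjd2 difference was 0.21 (adjusted p = 0.775). In the cortex of mouse 14 Gjc3 was at 10.9995 CPM, where the other 5 Gnb5-/- libraries had 22.8 to 31.3, and Gjb2 was at 14.1 CPM, the highest of the 6. Its Gja1 level lay within the range of the others. The part of its astrocyte and neuron content in these values was not tested.

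The other brain tests of Gnb5-/- mice had an unadjusted p above 0.05. The astrocyte connexin Gja1 had 153 ± 12.1 CPM in Gnb5-/- cerebellum, 178 ± 4.86 CPM in hippocampus and 162 ± 5.05 CPM in cortex, and the 95% intervals of its log2 difference from wild type were -0.31 to 0.02, -0.13 to 0.06 and -0.13 to 0.20. Hippocampus gave the narrowest of these. The myelin connexin Gjc3 had 58.2 ± 10.2 CPM in Gnb5-/- cerebellum, 29.9 ± 3.38 CPM in hippocampus and 25.2 ± 7.49 CPM in cortex, with intervals of -0.36 to 0.12, -0.31 to 0.12 and -0.56 to 0.26. Without the cerebellum of mouse 12 its difference moved from -0.12 to -0.02 (-0.14 to 0.09), and without the cortex of mouse 14 from -0.15 to -0.01 (-0.21 to 0.19). Gjb1 had 4.31 ± 0.892 CPM in hippocampus and 4.79 ± 0.612 CPM in cortex, with intervals of -0.46 to 0.14 and -0.28 to 0.22. The widest intervals were those of Gja5, at 0.538 ± 0.186 CPM in Gnb5-/- hippocampus (-0.10 to 1.26) and 0.686 ± 0.147 CPM in Gnb5-/- cortex (-0.12 to 1.23), where 13 to 45 reads were counted per library.

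In cerebellum, the library of mouse 12 had the lowest Gjc3, at 38.7 CPM, and the highest Gjb6, at 64.6 CPM, of the Gnb5-/- mice. Without it, Gjb2 differed by -0.17 (SE 0.06, adjusted p = 0.312) and Gja1 by -0.15 (SE 0.07, adjusted p = 0.384) between Gnb5-/- and Gnb5+/+. Gjb6 moved from -0.04 to -0.19 (SE 0.11, adjusted p = 0.516). None of these passed. In hippocampus, Gjb2 differed by -0.08 (SE 0.31) with all libraries and by 0.24 (SE 0.26, adjusted p = 0.861) without the wild-type library of mouse 15.

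**Figure D3:**
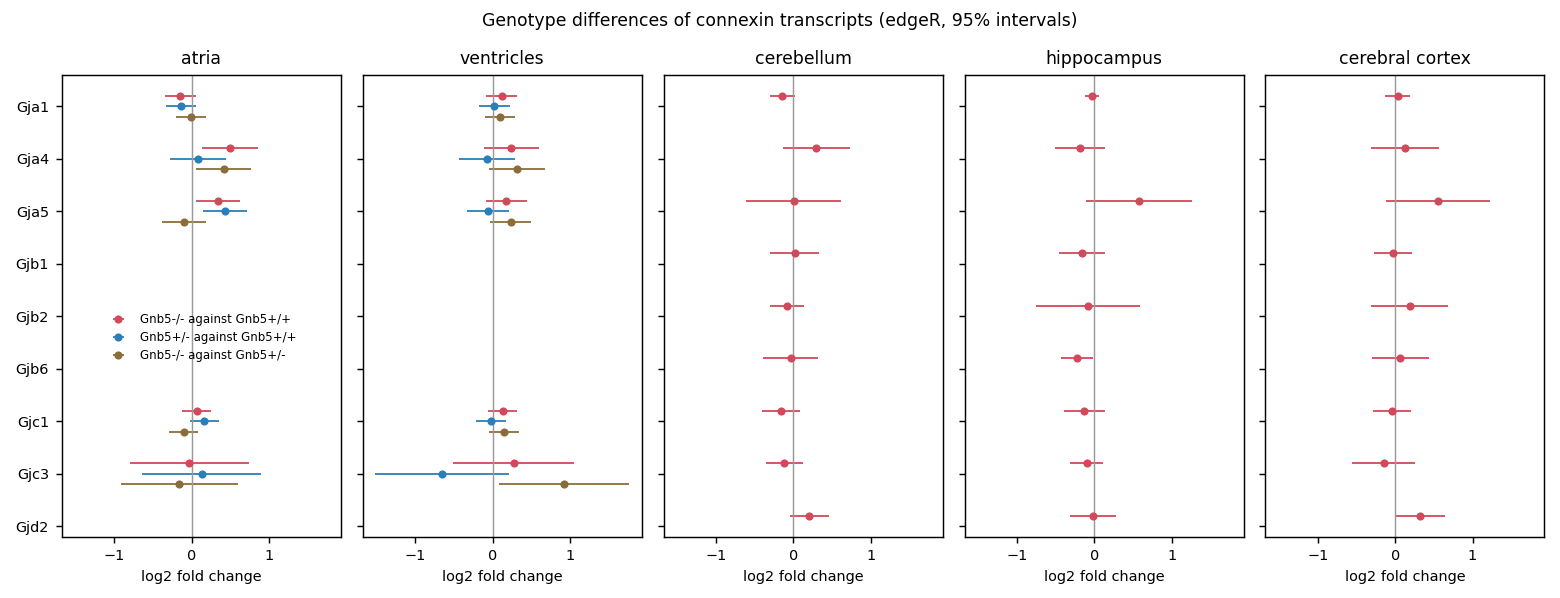
Genotype differences of each connexin in each tissue as log2 fold changes from edgeR (points) with 95% intervals (lines), coloured by comparison, for the genes that passed the filter on low counts. No difference passed the adjusted threshold, and the intervals of Gja4 and Gja5 in atria for Gnb5-/- against Gnb5+/+ lie above 0 before any adjustment.

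Whether the Gnb5-/- effect differed between tissues was tested as an interaction for 32 combinations of a connexin and a pair of tissues, 5 between the chambers and 27 between brain regions. None passed, none had an unadjusted p below 0.05, and the smallest unadjusted p was 0.0587, for Gja1 in cerebellum against cortex. Of all genes, 0.00622% passed between the chambers, 0.0206% in cerebellum against either of the other regions and 0% in hippocampus against cortex.

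Within groups, the brain connexins varied with sums of cell type markers, some of them shared between genes. Each library's deviation from its group mean was taken on the log2 scale, and correlations over the 36 brain libraries are given as descriptions, with the value over 34 libraries, without the cortex of mouse 14 and the cerebellum of mouse 12, in brackets. Libraries of 1 mouse share the animal, and all share their scaling. Gjb2 followed the sum of smooth muscle markers with r = 0.767 (0.758) and that of fibroblast and meninges markers with r = 0.702 (0.739). It had r = 0.542 (0.440) with endothelial and r = 0.551 (0.460) with arterial endothelial markers. Gja4 followed endothelial markers with r = 0.656 (0.527) and smooth muscle markers with r = 0.636 (0.576). Gjb1 followed oligodendrocyte markers with r = 0.683 (0.649) and, more closely, Schwann cell markers with r = 0.756 (0.708). Gjd2 followed GABAergic neuron markers with r = 0.696 (0.695), but nearly as closely fibroblast and meninges markers with r = 0.652 (0.682) and arterial endothelial markers with r = 0.642 (0.545), and had r = 0.368 (0.120) with general neuron markers.

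The other members were less stable or flatter. Gjc3 followed the astrocyte sum with r = 0.708 (0.528) and ran opposite to the GABAergic sum with r = -0.693 (-0.431), both of which weakened without the pair of libraries that stood apart. Larger values of Gjc3 were r = 0.810 (0.598) with the pacemaker and conduction sum and r = -0.795 (-0.488) with the arterial endothelial sum. The pacemaker and conduction list is named for heart cells, and its name does not hold in brain. Its mean sum was 741 CPM in wild-type cerebellum, 222 CPM in hippocampus and 265 CPM in cortex, against 76.2 CPM in atria. With the oligodendrocyte sum it had r = 0.0317 (0.568), and with the Schwann cell sum r = 0.396 (0.630), both higher without that pair. With the astrocyte sum, Gjb6 had r = -0.449 (-0.457), Gjb2 r = -0.411 (-0.278) and Gja1 r = -4.02e-05 (-0.00459). Among the connexins themselves, Gja4 and Gjb2 varied together with r = 0.604 (0.535), and Gjc3 and Gjd2 in opposite directions with r = -0.589 (-0.477). The neighbours Gjb2 and Gjb6 had r = 0.321 (0.193), and the astrocyte genes Gja1 and Gjb6 had r = -0.0404 (-0.0963). In the heart, the highest value between members was r = 0.435, for Gja1 and Gjc1 over 36 libraries.

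**Figure D4:**
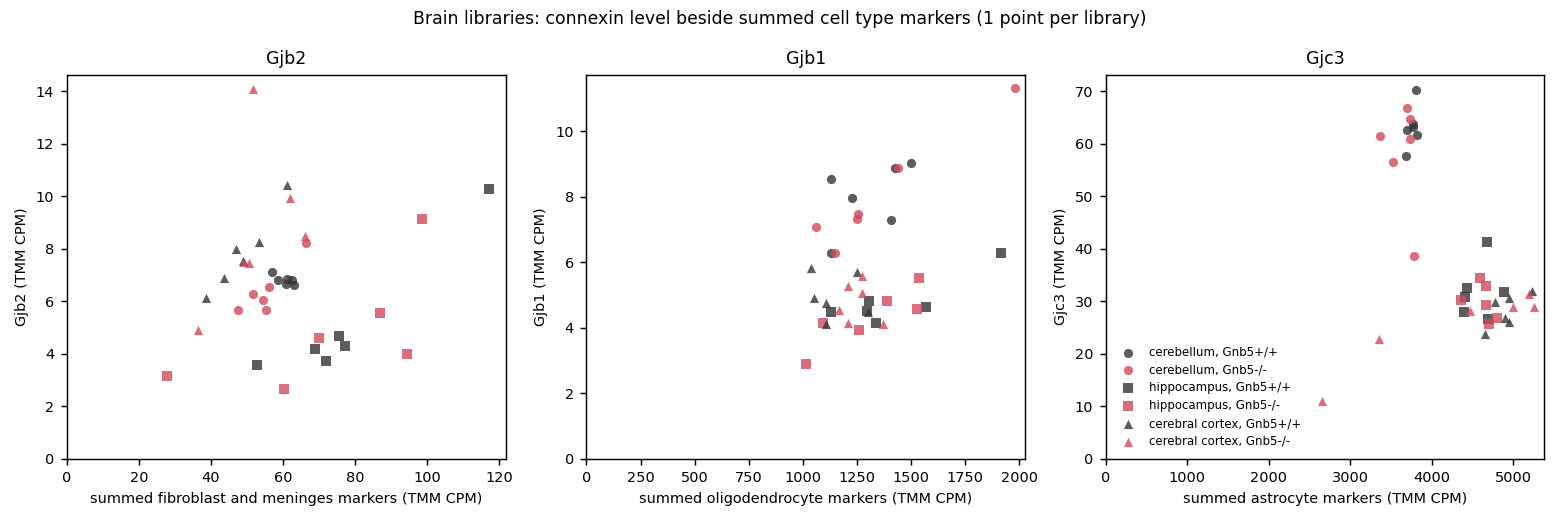
Level of Gjb2, Gjb1 and Gjc3 in TMM CPM against the summed TMM CPM of cell type markers in the same brain library, with 1 point per library, shapes for the regions and colours for the genotypes. The wild-type hippocampus of mouse 15 lies at 117 CPM of fibroblast and meninges markers and 10.3 CPM of Gjb2, and the Gnb5-/- cortex of mouse 14 at 2658 CPM of astrocyte markers and 10.9995 CPM of Gjc3.

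The genes whose pattern was most like a connexin's were found by Pearson's r. Over the levels of all 72 libraries, which mainly reflect tissue, Gja5 was closest to Mybphl (r = 0.989) and Gata5, and 140 of 16129 protein-coding genes exceeded r = 0.95. Gja4 was closest to the endothelial genes Esam (r = 0.969), Acvrl1 and Sox18, with 77 genes above 0.95. For the other 7 connexins between 749 and 1438 genes exceeded that value, so that a few names carry little. Over deviations from group means in the brain, Gjb2 was closest to Ptgds (r = 0.914, or 0.908 without the pair of libraries), a prostaglandin D synthase of the meninges, and to H2-Ab1 (0.872). Gjc3 was closest to Plxnb3 (0.954, or 0.873), Sec14l5 and Myrf, the last a regulator of myelin genes. Gjb6 was closest to Selenop (0.909, or 0.887), Hexa and Ndrg2, an astrocyte gene. Gjb1 was closest to Cyp27a1 (0.814), Hapln2 and Plekhb1, and Gjd2 to Dusp10 (0.807). Gja1 had no gene above P2ry12 (0.744), a microglial receptor.

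Pannexins, which form channels without docking, and further connexins were examined as a list of 13 genes, of which 6 could be tested in wild-type mice. Between heart and brain, 2 were higher in heart and 3 in brain, where 90.9% of all genes tested differed. With library size alone, which moved the median difference of all genes from -0.22 to -1.08, 2 were higher in heart and 4 in brain. Gja3 was at 28.1 ± 6.64 CPM in heart and 0.164 CPM in brain, where it had 0.431 ± 0.0994 CPM in hippocampus and at most 1 read in a cerebellar library. Gjb5 was at 1.97 ± 0.706 CPM in atria and 0.218 ± 0.0904 CPM in ventricles and had at most 3 reads in a wild-type brain library. No fold is given for either. Panx2, a neuronal pannexin, was at 6.16 CPM in heart and 65.7 CPM in brain, a difference of -4.34 (SE 0.08). All 6 were higher in atria than in ventricles, where 5797 of the 19477 genes tested passed as higher in atria.

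Of 9 partners of connexins at the intercalated disc and at tight and adherens junctions, 9 were higher in heart than in brain, with a median difference of 2.40, where 7936 of the 19477 genes tested were higher in heart. That count depended on the scaling: with library size alone, a count added after the data were seen, 7 were higher. The largest differences were those of the desmosomal genes Dsp (9.38, SE 0.28) and Pkp2 (4.66, SE 0.08) and of the alpha-catenin gene Ctnna3 (4.74, SE 0.11). In the genotype comparisons neither list had a gene that passed. Over all 15 lists, 87 genes gave 604 genotype tests with 0 called and 54 with an unadjusted p below 0.05, and the smallest adjusted p was 0.110.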

How the data were processed

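The authors prepared stranded total RNA libraries, removed ribosomal and low-complexity reads, trimmed adapters (cutadapt 1.8), aligned single-end reads to GRCm38 with STAR 2.5.3a and counted them per Ensembl gene with htseq-count (HTSeq 0.9.1). The deposited values were whole read counts without normalisation, beside rows of reads not assigned to a gene, which were left out. Reads assigned to no gene feature were 2.85% to 17.0% of the uniquely aligned reads.

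Counts were scaled with TMM, filtered with filterByExpr (count minimum 10) and compared with edgeR's quasi-likelihood test (edgeR 4.0.16, R 4.3.3), with Benjamini-Hochberg adjustment over all genes tested and a threshold of 0.05. Heart fits held 18 libraries of a tissue, brain fits 12, and the wild-type fit 30 libraries of 5 tissues. Single genes were also compared by two-sided exact permutation over 924 divisions of log2 CPM (prior count 2). All 9 members were named in every group. Other listed genes were named if called with genotype, or if among the 3 largest wild-type differences between heart and brain. The genes of most like pattern were the 3 of highest r, and some of these are not reported here. The members and lists were chosen with earlier results of these data known.

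Tissues of 1 mouse are paired by the mouse number in the labels: in the wild-type fit, deviations of the same mouse correlated with a median r of 0.263 over 60 pairs, and those of other mice with -0.0534. The fits carried no such block, which was an alternative. Other alternatives were DESeq2 1.42.0, RLE factors, library size alone, no filter, robust empirical Bayes, fits of 2 genotypes and fits without single libraries. On simulated counts, edgeR recovered 48 of 100 genes changed by 0.5 and 67 of 100 changed by 1 (log2) for Gnb5-/- against Gnb5+/+ atria, among 16181 genes. In cerebellum it recovered 16 and 63 of 100, among 17139 genes.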

Additional observations from a re-analysis of the deposited data

Results flagged for a closer look

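Among 83 groups of a connexin with 6 libraries, 8 held a library whose gap to the nearest other exceeded Dixon's 95% critical value, where chance alone gives about 1 group in 20, or 4.15 groups. Of these, 4 came from a pair of Gnb5-/- animals. Mouse 14 had Gja4 at 2.35 CPM in hippocampus (next 1.57) and at 3.32 CPM in cortex (next 2.34). The cerebellum of mouse 12 had Gjb2 at 8.23 CPM (next 6.54) and Gjc3 at 38.7 CPM, below the next at 56.6.

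The wild-type hippocampus of mouse 15 had Gjb2 at 10.3 CPM (next 4.67). The wild-type hippocampus of mouse 17 had Gjb1 at 6.29 CPM (next 4.81), and also the highest sum of oligodendrocyte markers of the group, at 1916 CPM. In atria, Gjc1 stood at 23.1 CPM in Gnb5+/- mouse 2 (next 19.9) and Gjc3 at 0.886 CPM in Gnb5-/- mouse 1 (next 0.360). No cause of these values was tested.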

How the results depend on the processing

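Of 128 recomputed counts of connexins called, 126 stayed within 1.5 times the main count. Many of the main counts lay at an extreme. They were 0 in every genotype and interaction comparison and 9 of 9 in every wild-type comparison of heart with brain tissue. The exceptions fell among the other wild-type comparisons. With library size alone, 1 connexin differed between wild-type atria and ventricles instead of 4, and the log2 differences of Gja1 and Gjc1 turned to 0.0689 and 0.0289. The library sizes are not adjusted for composition in that setting, and it multiplied levels by a median of 1.33 in brain and 0.842 in heart, which moved 65 of the group levels by over 1 SD. RLE factors moved 3. Without the hippocampus of wild-type mouse 15, added after seeing the data, 5 connexins differed between cerebellum and hippocampus instead of 8. The cause was not tested. In that comparison Gja4 also missed the threshold with library size alone (adjusted p = 0.0808), Gjb6 with RLE factors, DESeq2 and no filter, and Gjb2 with RLE factors and DESeq2 (adjusted p = 0.0554 and 0.0783).

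No genotype test of a connexin passed under any alternative. The adjusted p of Gja4 in Gnb5-/- against Gnb5+/+ atria ranged from 0.241 to 0.530. Over all genes, DESeq2 called 113 against 41 in that comparison and 110 against 29 in hippocampus. Without a filter on low counts Gjb2 could be tested in atria, with 1.74 for Gnb5-/- (adjusted p = 0.544) and 1.82 for Gnb5+/- (adjusted p = 0.686), from at most 9 reads per library. With the replicate block or the mouse as a block, 0 connexins were called for any genotype and no wild-type count changed. Within a tissue the same replicate number joins different mice, and the median correlation of their deviations was between -0.0779 and -0.00888. Depth limits Gjb1, Gjb2, Gjb6 and Gjd2 in the heart, where 3 counts correspond to 0.0651 to 0.102 CPM without TMM scaling.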
